A study of Mus musculus with 90 samples.

Results

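The genes of the thyroid hormone axis described here are Trh, Trhr, Dio2, Thra, Thrb and Hr. They are 6 of the 37991 mouse Ensembl gene identifiers in the deposited count table, chosen as the rows whose identifier maps to 1 of these symbols, and all 6 passed the filter on low counts in every region. The study asked how gene expression in 3 brain regions of a territory-holding male changes after it meets an intruder. Residents were C57BL/6J males that had lived with a female, which was taken out 3 h before the test. For 5 min they were shown either an unfamiliar BALB/cJ male inside a wire mesh cage, called the intruder condition here, or the same cage with a paper cup, the control condition. Amygdala, frontal cortex and hypothalamus were dissected 30, 60 or 120 min later, and the age of the animals is not given in the labels. Neither condition had an undisturbed group, so handling, the cage and the removal of the female are shared by all animals.

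The 90 libraries come from 32 animals, 28 of which gave all 3 regions. They form 18 groups with 5 libraries each, apart from the 30 min controls of hypothalamus (3 libraries) and both 120 min groups of frontal cortex (6 libraries each). The study text also says that RNA was pooled for the libraries while the labels name 1 animal for each, so p-values measure the spread between these libraries. Depth was 38.6 to 58.9 M reads in genes (median 49.0 M). Levels are given as CPM, a gene's reads relative to the total of the library, on library sizes scaled by the trimmed mean of M-values (TMM), and an adjusted p below 0.05 from edgeR's quasi-likelihood test over all genes is called.

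Thyroid hormone output is set from the hypothalamus. Neurons of the paraventricular nucleus release the tripeptide TRH (gene Trh), which acts on a G protein-coupled receptor (Trhr) in the pituitary and also in other brain areas. The thyroid gland secretes mostly the prohormone T4. In the brain the type 2 deiodinase (Dio2), an enzyme of astrocytes and of the tanycytes that line the third ventricle, converts T4 to the active hormone T3. T3 binds the nuclear receptors encoded by Thra and Thrb. Hairless (Hr) is a corepressor that binds these receptors, and its gene is itself raised by T3 in the developing brain. In dissected tissue, fewer cells of a type and less RNA per cell cannot be told apart.

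Promoter sequences are shown for Trh and Dio2, the 2 members whose levels differed most between hypothalamus and frontal cortex in opposite directions. Of the 6 members, 3 had an entry in the RefSeq promoter table (Trh, Dio2 and Thrb), whose build is GRCm38.p6. Each window holds the 250 bases before the gene start on the minus strand, 5′ to 3′, at chr6:92244651-92244900 for Trh and chr12:90739039-90739288 for Dio2. For Dio2 the start used is that of RefSeq, and the nearest transcript start in Gencode M21 lies 600 bases from it, so the distances given for Dio2 are to the RefSeq start. Capitals mark TGACCTCA in Trh, and TGACGTCA and TATAAA in Dio2.
Trh: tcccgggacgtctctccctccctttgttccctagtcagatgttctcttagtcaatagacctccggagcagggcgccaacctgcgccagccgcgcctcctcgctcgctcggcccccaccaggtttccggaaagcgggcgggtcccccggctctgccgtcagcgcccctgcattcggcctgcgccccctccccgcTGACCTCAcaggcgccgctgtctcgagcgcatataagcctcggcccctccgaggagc
Dio2: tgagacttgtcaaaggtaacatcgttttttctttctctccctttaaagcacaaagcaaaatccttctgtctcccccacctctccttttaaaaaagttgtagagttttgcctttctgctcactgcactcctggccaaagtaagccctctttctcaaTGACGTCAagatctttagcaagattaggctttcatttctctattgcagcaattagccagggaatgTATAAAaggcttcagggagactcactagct

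TGACGTCA is the cAMP response element, and in the Dio2 window it begins 95 bases before the start. TATAAA, the TATA box, begins 30 bases before the start of Dio2. In the Trh window TGACCTCA, a variant of the cAMP response element, begins 57 bases before the start. The first 6 letters of that match are also the reverse complement of AGGTCA, the half-site to which thyroid hormone receptors bind. Over 32851 RefSeq promoter windows of 250 bases, searched on both strands, 1.55% held TGACGTCA, 1.94% TGACCTCA, 14% AGGTCA and 12.4% TATAAA. The Trh window was 68.8% G and C with 25 CpG dinucleotides, and the Dio2 window 41.6% with 2. These matches describe the letters in the window and were not measured as binding sites.

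The dissections were checked against marker genes before the members were read. Summed over 5 hypothalamic markers (Nkx2-1, Hcrt, Pmch, Agrp and Pomc), hypothalamus libraries held 315 to 914 CPM, against at most 11.2 CPM in amygdala and 6.45 CPM in frontal cortex. The 5 cortical markers summed to 1449 to 2134 CPM in frontal cortex, 329 to 1334 CPM in amygdala and 34.1 to 204 CPM in hypothalamus. Amygdala libraries differed in the level of striatal markers: 5 markers of striatal neurons, among them Drd1, Drd2, Ppp1r1b and Adora2a, summed to 178 to 1740 CPM. In frontal cortex the 5 olfactory bulb markers ranged from 4.30 to 78.6 CPM. All genes of these lists had at least 1 read in some library of each region. The libraries of 30 min carry a different mark in the table header (ISO) from those of 60 and 120 min (CERV), the meaning of which is not given. A difference between 30 min and a later time therefore cannot be told apart from a difference between the marks.

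Trh itself was a hypothalamic transcript. Hypothalamus libraries held 76.7 to 174 CPM (median 124), amygdala libraries 6.00 to 77.9 CPM (median 12.7) and frontal cortex libraries 0.221 to 11.9 CPM (median 1.68). The lowest hypothalamus library was just below the highest amygdala library, and the frontal cortex range met only the lower end of the amygdala range. In control animals Trh was 60.9-fold higher in hypothalamus than in frontal cortex (log2 difference 5.93 ± 0.371 SE, adjusted p = 3.51e-25, edgeR with Benjamini-Hochberg adjustment). It was 6.31-fold higher in hypothalamus than in amygdala (2.66 ± 0.310, adjusted p = 3.88e-12) and 9.65-fold higher in amygdala than in frontal cortex (3.27 ± 0.351, adjusted p = 2.07e-13).

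Trhr, the receptor for TRH, was lowest in frontal cortex, like its ligand. Amygdala libraries spanned 6.14 to 50.1 CPM (median 21.4), hypothalamus libraries 12.0 to 29.7 CPM (median 14.3) and frontal cortex libraries 0.928 to 5.22 CPM (median 1.75). All amygdala and hypothalamus libraries lay above the highest frontal cortex library. In controls Trhr was 12.7-fold higher in amygdala than in frontal cortex (3.67 ± 0.256, adjusted p = 5.67e-22) and 8.92-fold higher in hypothalamus than in frontal cortex (3.16 ± 0.260, adjusted p = 7.38e-19). Amygdala and hypothalamus overlapped. Their difference in controls (hypothalamus minus amygdala -0.51 ± 0.234, adjusted p = 0.0458) did not hold with the animal as a block, which pairs the regions of an animal (-0.30, adjusted p = 0.259). In the intruder animals the same difference was -0.48 ± 0.221 (adjusted p = 0.0435), and -0.32 (adjusted p = 0.181) with the animal as a block.

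Dio2 had the opposite order to Trh, and its 3 regions did not overlap. Frontal cortex libraries held 128 to 193 CPM (median 162), amygdala libraries 48.2 to 121 CPM (median 82.0) and hypothalamus libraries 7.67 to 40.2 CPM (median 15.2). In controls the hypothalamus was 11.1-fold below frontal cortex (-3.47 ± 0.130, adjusted p = 5.95e-39) and 5.69-fold below amygdala (-2.51 ± 0.123, adjusted p = 9.51e-31). Amygdala was 1.95-fold below frontal cortex (-0.96 ± 0.104, adjusted p = 2.97e-13). Astrocyte markers (Aqp4, Gfap, Aldh1l1, Slc1a2, Slc1a3 and Gja1, 6 of 6 with reads in every library) summed to 2309 to 3078 CPM in hypothalamus, 3255 to 4754 CPM in amygdala and 3355 to 5126 CPM in frontal cortex. Slc1a2, a glutamate transporter, was the most abundant of the 6, with a median of 1218 CPM in hypothalamus and 3068 CPM in frontal cortex. Aldh1l1 was also lower by median in hypothalamus than in frontal cortex (58.7 against 72.5 CPM), while 4 of the 6 had a higher median there: Aqp4 (135 against 119 CPM), Gfap (209 against 107 CPM), Gja1 (248 against 197 CPM) and Slc1a3 (639 against 611 CPM). These 4 did not share the order of Dio2 between the 2 regions, and the part of the markers in its difference was not tested.

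**Figure D1:**
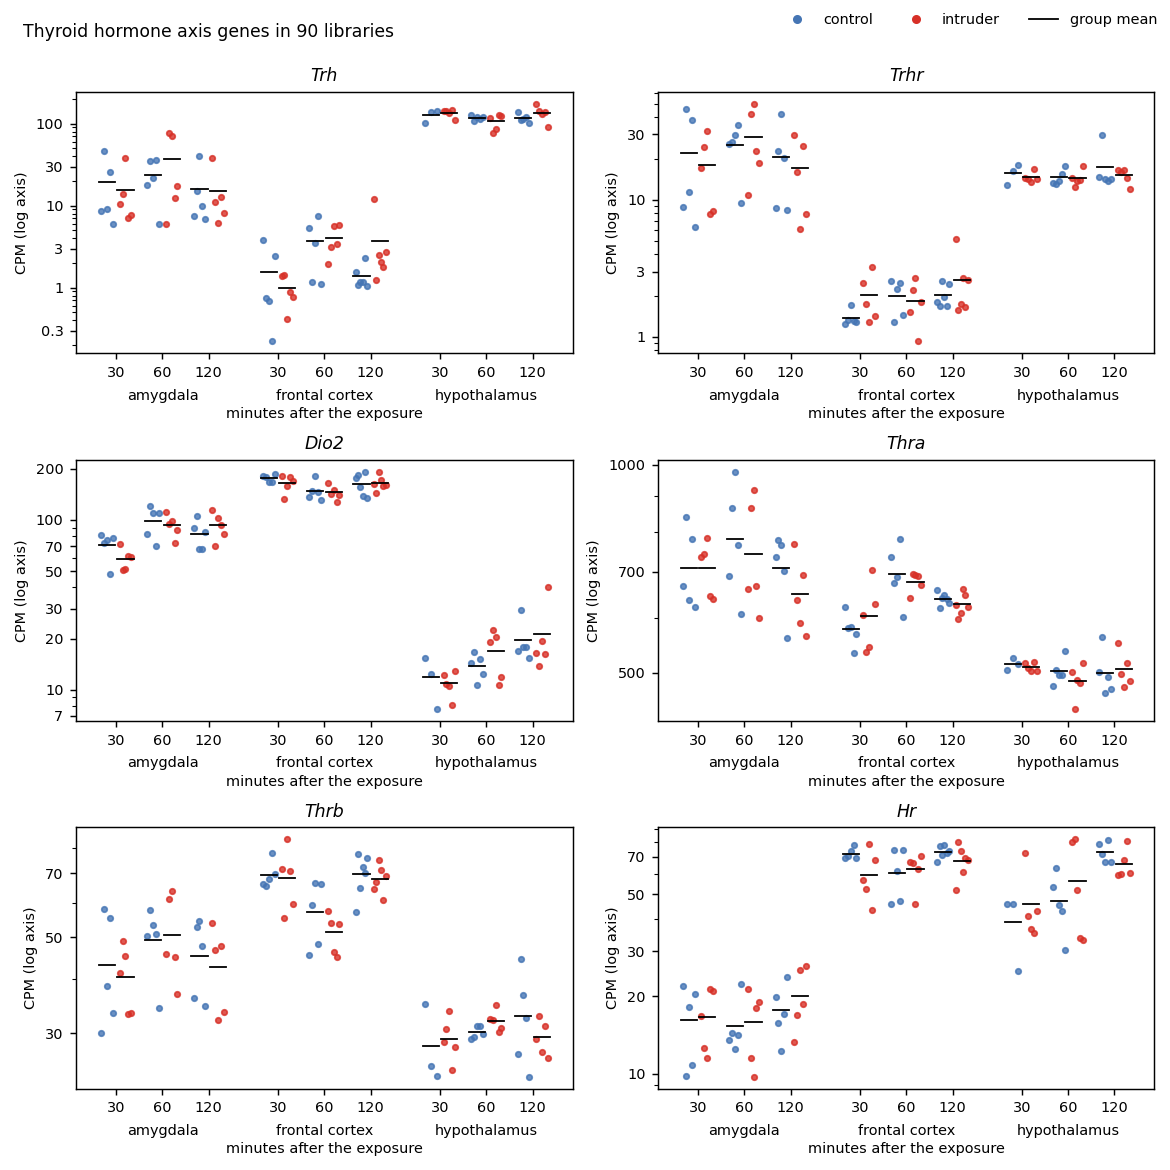
Level of each of the 6 genes in every library, in CPM on a log axis, against minutes after the exposure, with regions, conditions and libraries shown as separate points. Trh is highest in hypothalamus, Dio2 in frontal cortex with no overlap between regions, and Trhr is lowest in frontal cortex.

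The receptor genes differed less between regions. Thra ranged from 561 to 977 CPM in amygdala (median 696), from 534 to 781 CPM in frontal cortex (median 635) and from 443 to 563 CPM in hypothalamus (median 502). Thrb ranged from 30.1 to 63.8 CPM in amygdala (median 46.2), from 45.0 to 83.9 CPM in frontal cortex (median 66.3) and from 23.8 to 44.4 CPM in hypothalamus (median 30.5). Both were lowest in hypothalamus, but Thra was highest in amygdala and Thrb in frontal cortex. In controls Thra was 1.26-fold lower in hypothalamus than in frontal cortex (-0.33 ± 0.0529, adjusted p = 4.10e-08), and Thrb 2.15-fold lower (-1.10 ± 0.0928, adjusted p = 1.79e-18). Between amygdala and frontal cortex the directions split, with Thra higher in amygdala (0.20 ± 0.0497, adjusted p = 0.000226) and Thrb lower (-0.51 ± 0.0853, adjusted p = 2.16e-07).

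Levels of different genes were compared per kilobase of merged exon, with lengths from Gencode M21. Thra was the most abundant member on this scale in all 3 regions, at 155 ± 22.7 CPM per kb in amygdala (SD, n = 30), 138 ± 12.0 in frontal cortex (n = 32) and 109 ± 5.39 in hypothalamus (n = 28). Trh came second in hypothalamus, at 89.2 ± 15.3 CPM per kb, and Dio2 second in frontal cortex, at 27.7 ± 3.32. Per kb, Thra exceeded Thrb 26.0 ± 3.58-fold in amygdala, 16.5 ± 4.04-fold in frontal cortex and 26.9 ± 3.77-fold in hypothalamus. Gene counts do not separate the Thra isoforms, of which 1 does not bind T3. Thra overlaps Nr1d1 on the opposite strand, Dio2 overlaps Gm26512, and Thrb overlaps Gm48320, Gm24140 and Gm48321, and the strand setting of the counting is not given, so reads from these pairs cannot be told apart.

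Hr, the corepressor, was low in amygdala. Amygdala libraries held 9.72 to 26.2 CPM (median 17.0), frontal cortex libraries 43.4 to 80.1 CPM (median 69.2) and hypothalamus libraries 25.2 to 81.9 CPM (median 56.4). Amygdala and frontal cortex did not overlap, while the hypothalamus range covered that of frontal cortex. In controls Hr was 4.15-fold lower in amygdala than in frontal cortex (-2.05 ± 0.132, adjusted p = 5.18e-24) and 3.11-fold higher in hypothalamus than in amygdala (1.64 ± 0.136, adjusted p = 2.56e-18). It was 1.34-fold lower in hypothalamus than in frontal cortex in controls (-0.42 ± 0.132, adjusted p = 0.00313). In the intruder animals that last difference was -0.19 ± 0.124 (adjusted p = 0.143), and -0.29 (adjusted p = 0.0318) without replicate 1 of the 30 min intruder animals.

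All 6 members were called in each of the 3 region pairs in controls. With the animal as a block Trhr was not called between hypothalamus and amygdala (adjusted p = 0.259 in controls and 0.181 in intruder animals). Of all 18337 genes tested, 81.9% were called between hypothalamus and frontal cortex, 72.3% between hypothalamus and amygdala and 67.6% between amygdala and frontal cortex, so a call alone says little about these genes and the size of the difference carries the description. In the intruder animals, which are other animals, 5 members were called between hypothalamus and frontal cortex (background 82.6%), 6 between hypothalamus and amygdala (72.8%) and 6 between amygdala and frontal cortex (67%). The difference for Thra between amygdala and frontal cortex was 0.14 ± 0.0497 there (adjusted p = 0.0116), and it passed 0.05 without replicate 1 of 120 min, replicates 2 or 3 of 30 min or replicates 2 or 3 of 60 min (adjusted p = 0.0620 to 0.0887).

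**Figure D2:**
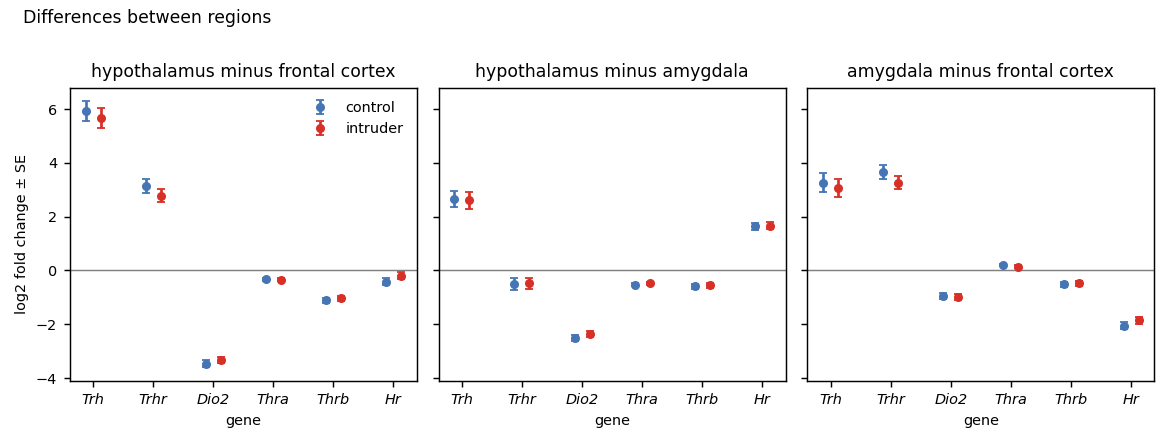
Log2 difference between regions for each of the 6 genes, with bars for the standard error, in control and in intruder animals, 1 panel for each pair of regions. Trh and Dio2 lie furthest from 0 and on opposite sides between hypothalamus and frontal cortex, and Thra lies closest to 0 between amygdala and frontal cortex.

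The rest of the axis was read from 6 lists with 51 genes. Between hypothalamus and frontal cortex in controls 45 of 50 tested genes were called, 18 higher and 27 lower in hypothalamus, with a median of -0.19 against 0.02 over all genes. Over all genes tested 81.9% were called, 42.4% higher and 39.6% lower in hypothalamus, so calls in these lists were common everywhere. Transport and storage genes were lower in hypothalamus, 8 of 8, with a median of -0.90. Among them were Slco1c1, which carries thyroid hormone into brain cells (-1.03, adjusted p = 2.25e-26), and Crym, a cytosolic T3-binding protein (-2.52, adjusted p = 6.79e-16). Of 11 genes that T3 raises in brain, 7 were lower and 3 higher in hypothalamus (median -0.96, against the same shares over all genes). The lower genes included Nrgn, a calmodulin-binding protein of cortical neurons (-4.23, adjusted p = 2.52e-39), and the transcription factor Klf9 (-1.53, adjusted p = 4.42e-31). Genes with a higher mean in hypothalamus included Mbp (2806 against 2062 CPM), Shh (11.1 against 3.42 CPM) and Flywch2 (13.6 against 5.87 CPM). The cortical markers were also lower in hypothalamus, and their part in the Nrgn difference was not tested. Slco1c1 is an endothelial gene and part of the list of 5 endothelial markers, which summed to 80.1 to 160 CPM in hypothalamus and 169 to 254 CPM in frontal cortex. The other 4 also had lower medians in hypothalamus, at 17.5 against 29.4 CPM for Cldn5, 44.3 against 61.1 CPM for Flt1, 14.5 against 18.2 CPM for Pecam1 and 22.8 against 34.3 CPM for Ly6c1, and their part in the Slco1c1 difference was not tested. The list of genes that process or degrade TRH, which also holds the second receptor gene Trhr2, was split, 3 higher and 4 lower of 7. Trhr2 averaged 0.977 CPM in hypothalamus and 2.85 CPM in frontal cortex. Pcsk1 (0.64, adjusted p = 2.35e-09) and Pam (0.56, adjusted p = 8.50e-16), which cut and amidate the TRH precursor, were higher in hypothalamus, and Trhde, which degrades TRH, was lower (-0.70, adjusted p = 1.86e-14). The processing enzymes Pcsk2 (-1.16, adjusted p = 3.02e-35) and Cpe (-0.39, adjusted p = 1.35e-17) were lower in hypothalamus, and Pgpep1, another TRH-degrading enzyme, was higher (0.67, adjusted p = 5.09e-27).

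Dio3 inactivates thyroid hormone and so opposes Dio2. Its mean level was 5.4 ± 4.2 CPM in amygdala (SD, n = 30), 1.29 ± 0.491 CPM in frontal cortex (n = 32) and 0.443 ± 0.685 CPM in hypothalamus (n = 28). In controls it was higher in amygdala than in frontal cortex (2.16 ± 0.319, adjusted p = 8.60e-09) and lower in hypothalamus than in amygdala (-3.29 ± 0.388, adjusted p = 5.36e-12). Of the pituitary and thyroid genes, 6 of 6 were higher in hypothalamus than in frontal cortex in controls (42.4% of all genes were), led by Cga and Tshb, the subunits of thyrotropin. Their mean levels in hypothalamus were only 2.43 ± 3.03 and 0.124 ± 0.157 CPM (n = 28), with a lowest library at 0 for each, and the summed pituitary markers, a list that holds both genes, ran from 0.0234 to 18.9 CPM there. The part of pituitary tissue in this was not tested.

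The intruder exposure left no called change in any member. Over the 54 tests (6 genes, 3 regions, 3 times) edgeR, DESeq2 and limma voom each called 0, 1 test had an unadjusted p under 0.05, and the smallest adjusted p was 0.582. Log2 differences between intruder and control ran from -0.66 to 1.44 with SE of 0.0460 to 0.702, and 23 of 54 were above 0. The groups overlapped in all 54, while between 0.246% and 3.22% of all genes did not overlap. Few genes of any kind were called: 0.538% in amygdala at 120 min, 0.192% in hypothalamus at 120 min and 0 at the other 7 combinations. The members' count of 0 is thus close to the background.

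The precision differed between genes, with SE from 0.0460 to 0.127 for Thra and from 0.142 to 0.702 for Trh. SE ran from 0.0957 to 0.194 for Thrb, 0.0885 to 0.300 for Dio2, 0.124 to 0.279 for Hr and 0.161 to 0.567 for Trhr. For Thra the 9 differences lay between -0.12 and 0.06, for Thrb between -0.17 and 0.09 and for Dio2 between -0.28 and 0.29. For Hr they lay between -0.27 and 0.26, for Trhr between -0.31 and 0.57 and for Trh between -0.66 and 1.44. Averaged over the 3 times, 0 of 18 tests were called, with 0 at an unadjusted p under 0.05 and 0 calls by DESeq2 or voom. The test of whether the intruder effect differed between times called 0 of 18 (background at most 0.0113%) and that between regions 0 of 18 (at most 0.0109%), again with 0 at an unadjusted p under 0.05 and 0 by the other tools. Of the 51 further axis genes, 0 were called in an intruder comparison; averaged over times, 1 of 47 in amygdala, 4 of 50 in hypothalamus and 1 of 47 in frontal cortex had an unadjusted p under 0.05.

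The 1 test with an unadjusted p under 0.05 was Trh in frontal cortex at 120 min. Control libraries ranged from 1.05 to 2.29 CPM (median 1.17). Intruder libraries held 11.9, 1.25, 2.50, 2.04, 1.79 and 2.70 CPM. A single library, replicate 1, stood above all others, and the rest overlapped the controls. The log2 difference was 1.44 ± 0.549 (adjusted p = 0.828, edgeR with Benjamini-Hochberg adjustment), and 0.57 without that library. The same library had the highest Trhr level of frontal cortex (5.22 CPM) and the highest sum of the 5 neuroendocrine hypothalamic markers there (31.1 CPM), with Oxt at 15.4 CPM and Avp at 8.25 CPM. Their part in its Trh level was not tested.

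**Figure D3:**
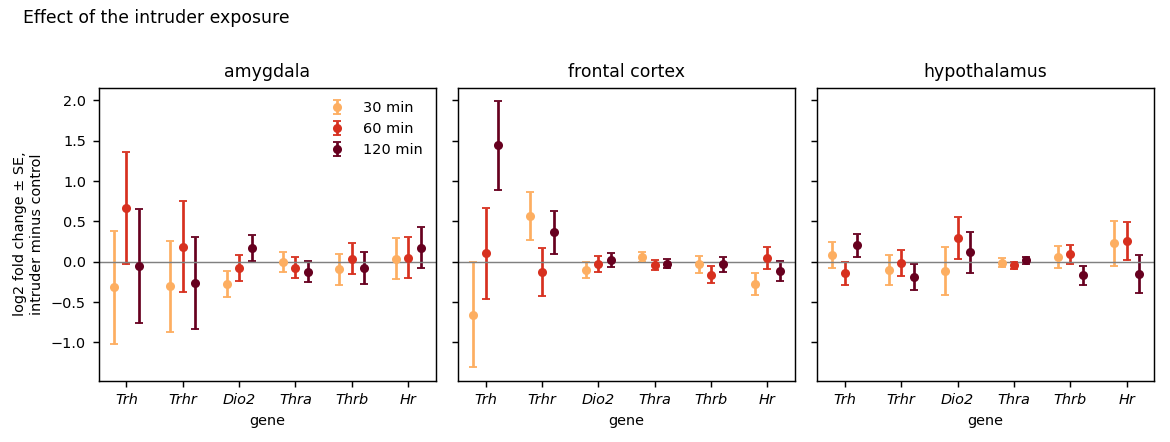
Log2 difference between intruder and control for each gene at 30, 60 and 120 min, with bars for the standard error, 1 panel for each region. The points scatter on both sides of 0, and the widest bars belong to Trh and Trhr in amygdala and to Trh in frontal cortex.

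Dio2 in amygdala differed between times after the exposure. At 30 min the control libraries held 81.7, 73.5, 76.5, 48.2 and 78.0 CPM and the intruder libraries 72.3, 50.7, 51.4, 60.9 and 60.2 CPM. At 60 min the controls held 82.2, 121, 110, 70.5 and 109 CPM and the intruder libraries 111, 94.8, 98.8, 73.0 and 87.8 CPM. At 120 min the controls held 89.3, 105, 67.7, 67.3 and 84.9 CPM and the intruder libraries 114, 70.4, 103, 93.9 and 82.5 CPM. Most libraries of the later times lay above those of 30 min, with overlap. Within the intruder animals Dio2 was the 1 member of 6 called over time (adjusted p = 0.00962, background 12.9%), a count near the background, and it was 0.66 ± 0.161 higher on the log2 scale at 60 than at 30 min (adjusted p = 0.0138, background 7.41%). At 120 against 30 min the difference was 0.65 (adjusted p = 0.00769, background 15%). With the first index sequence of the libraries as a block these calls within intruder animals did not hold (adjusted p = 0.463 over time), although the differences were no smaller, at 0.95 for 60 against 30 min (adjusted p = 0.521) and 0.66 for 120 against 30 min (adjusted p = 0.611). Without replicate 1 of the 60 min intruder group the call for 60 against 30 min was also lost (adjusted p = 0.0503). Within controls the same differences were 0.46 (adjusted p = 0.272, background 0.133%) and 0.21 (adjusted p = 0.866), and 0 of 6 members were called over time by edgeR (background 0.232%) and 0 by DESeq2 or voom, with 1 (Dio2) at an unadjusted p under 0.05.

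Because the intruder effect was not called, the 3 times were also compared over both conditions, a comparison added after the data were seen. Amygdala Dio2 averaged 65.3 ± 12.5 CPM in the 30 min libraries, 95.8 ± 17.2 CPM in those of 60 min and 87.8 ± 16.4 CPM in those of 120 min (SD, n = 10 each). It was 0.56 ± 0.114 higher at 60 than at 30 min (adjusted p = 0.00274, background 9.1%) and 0.43 ± 0.114 higher at 120 than at 30 min (adjusted p = 0.0149, background 9.78%), and it was the 1 member of 6 called over time (adjusted p = 0.00446), again a count near the background of 11.3%. Between 60 and 120 min, which share the header mark, the difference was -0.13 ± 0.113 (adjusted p = 0.718). The first index sequence of the libraries also differed between groups. With the index as a block the differences from 30 min were 0.66 (adjusted p = 0.709) and 0.47 (adjusted p = 0.799), so the calls did not hold. Summed astrocyte markers ran from 3255 to 3952 CPM in the 30 min libraries, from 3815 to 4461 CPM in those of 60 min and from 3823 to 4754 CPM in those of 120 min. Their part in the Dio2 difference was not tested.

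In hypothalamus, where the library index could not be fitted as a block for 120 against 30 min, these times also differ in header mark. Dio2 was higher there at 120 than at 30 min. The 30 min controls held 15.4, 12.4 and 7.67 CPM and the 30 min intruder libraries 12.3, 10.8, 10.5, 8.15 and 12.9 CPM. At 60 min the controls held 14.4, 16.6, 10.6, 15.1 and 12.3 CPM and the intruder libraries 19.1, 22.4, 20.4, 10.7 and 11.9 CPM. At 120 min the controls held 16.8, 29.6, 17.8, 17.8 and 15.4 CPM and the intruder libraries 16.4, 13.8, 19.3, 16.3 and 40.2 CPM. Only 1 library of 30 min exceeded the lowest library of 120 min. Dio2 was the 1 member of 6 called over the 3 times (adjusted p = 0.0423, background 2.84%). That call was lost with voom (adjusted p = 0.0558), without the filter on low counts (adjusted p = 0.0505) and in 15 of 28 fits that each left out 1 library (highest adjusted p = 0.113). The 15 were those without replicates 2, 3 or 5 of the 30 min controls, any of the 5 libraries of the 30 min intruder group, replicates 1, 3 or 5 of the 60 min controls, replicates 2 or 4 of the 120 min controls, or replicates 3 or 6 of the 120 min intruder group. Over both conditions Dio2 was 0.84 ± 0.20 higher at 120 than at 30 min (adjusted p = 0.0189, background 2.9%), and 0.73 (adjusted p = 0.0791) without replicate 5 of the 30 min controls. Replicate 2 of the 120 min controls (29.6 CPM) had the highest summed cortical markers of the hypothalamus libraries (204 CPM), and without it the difference was 0.74 (adjusted p = 0.0386). The difference between 120 and 60 min was 0.41 ± 0.181 (adjusted p = 0.312) and that between 60 and 30 min 0.43 ± 0.199 (adjusted p = 0.296, background 1.21%). Within controls the difference between 120 and 30 min was 0.73 (adjusted p = 0.40, background 0.175%) and within intruder animals 0.96 (adjusted p = 0.0513, background 1.93%). The latter was called with DESeq2 (adjusted p = 0.0183) and in 6 of the fits that left out 1 library (adjusted p = 0.0255 to 0.0491), those without replicates 1, 2 or 4 of the 120 min intruder group, replicate 2 of the 120 min controls, replicate 2 of the 30 min controls or replicate 4 of the 60 min intruder group. Over the 3 times 0 of 6 members were called within controls (0.181%) and 0 within intruder animals (1.49%) by edgeR, DESeq2 or voom. At an unadjusted p under 0.05 there were 2 in controls (Dio2 and Hr) and 2 in intruder animals (Trh and Dio2). The astrocyte markers summed to 2309 to 2432 CPM in the 30 min libraries, 2490 to 2740 CPM in those of 60 min and 2463 to 3078 CPM in those of 120 min, and their part was not tested.

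Hr in hypothalamus was also higher at 120 than at 30 min over both conditions, with the same limits of header mark and index. The 30 min libraries held 45.7, 46.0 and 25.2 CPM in controls and 72.5, 41.0, 36.5, 35.3 and 42.9 CPM in intruder animals. The 120 min libraries held 78.7, 71.5, 66.8, 81.4 and 66.7 CPM in controls and 59.5, 60.0, 67.8, 80.6 and 60.3 CPM in intruder animals. Apart from replicate 1 of the intruder group, every 30 min library lay below every 120 min library. The 60 min libraries spanned both, at 30.3 to 81.9 CPM. The difference between 120 and 30 min was 0.72 ± 0.185 (adjusted p = 0.0315), it passed 0.05 in 7 of the fits that each left out 1 library (highest adjusted p = 0.117), and the test over all 3 times gave an adjusted p of 0.0570, which was 0.0230 with DESeq2 and 0.0379 with voom. The 7 were the fits without replicates 2 or 5 of the 30 min controls, replicates 2, 3, 4 or 5 of the 30 min intruder group, or replicate 4 of the 120 min controls. Within controls the difference was 0.91 (adjusted p = 0.225) and within intruder animals 0.52 (adjusted p = 0.294). At 120 against 30 min 2 of the 50 other axis genes tested were called in hypothalamus, where 2.9% of all genes were, so this count is near the background. They were Klf9 (0.37, adjusted p = 0.00116) and Slco1c1 (-0.27, adjusted p = 0.0179). In amygdala 9 of 47 were called against a background of 9.78%, among them Klf9 (0.32, adjusted p = 0.0239) and Slco1c1 (-0.30, adjusted p = 0.0144). The endothelial markers, Slco1c1 among them, summed to 135 to 150 CPM at 30 min and 80.1 to 140 CPM at 120 min in hypothalamus, and to 155 to 220 CPM and 104 to 193 CPM in amygdala, and their part was not tested.

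**Figure D4:**
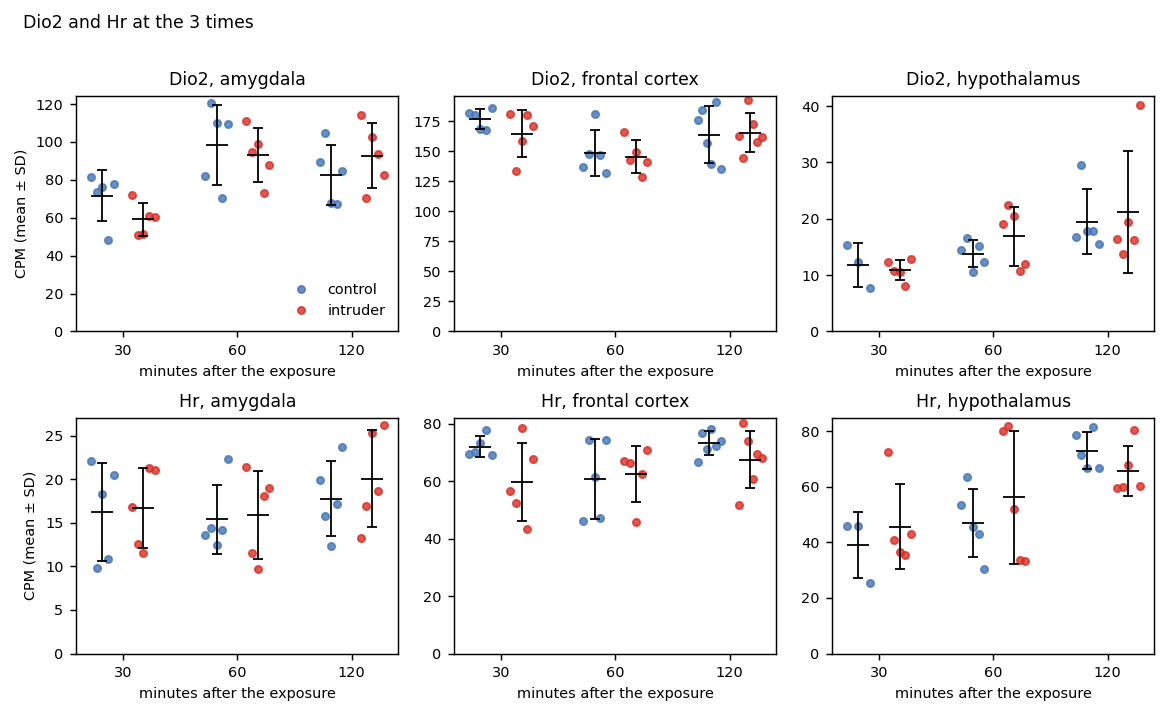
Levels of Dio2 and Hr in CPM at 30, 60 and 120 min in each region, with a point for each library and the mean and SD of each condition. In amygdala Dio2 is lowest at 30 min, and in hypothalamus both genes have their highest mean at 120 min, in control and intruder animals alike.

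In frontal cortex 58% of all genes were called over the 3 times, and 4 of the 6 members were among them, so the members' count is close to the background. Within controls 2 were called, Thra and Thrb (background 33.4%), and within intruder animals 2, Trh and Thrb (46.1%). The call of Thrb within controls was lost with the olfactory bulb marker score as a covariate (adjusted p = 0.129) and in 14 of 32 fits that each left out 1 library (highest adjusted p = 0.184), 5 of which left out a 30 min control, 3 a 60 min control, 4 a 120 min control and 2 a 120 min intruder library. That of Trh within intruder animals was lost without replicate 3 of the 30 min intruder group (adjusted p = 0.0524), and that of Dio2 over both conditions without replicate 6 of the 60 min controls (adjusted p = 0.05002) or replicate 4 of the 60 min intruder group (adjusted p = 0.0515). Between 30 and 60 min 4 were called (55.7%). Thrb averaged 68.9 ± 8.30 CPM in 10 libraries of 30 min, 54.2 ± 8.18 CPM in 10 of 60 min and 68.9 ± 6.25 CPM in 12 of 120 min, and was lower at 60 than at 30 min (-0.36 ± 0.0744, adjusted p = 0.000157). Thra moved the other way, from 591 ± 51.9 to 687 ± 48.2 CPM between 30 and 60 min (0.21 ± 0.0420, adjusted p = 9.87e-05), and was 634 ± 19.4 CPM at 120 min. Dio2 fell from 171 ± 15.5 to 147 ± 15.9 CPM (-0.22 ± 0.0686, adjusted p = 0.00705), against its rise in amygdala, where the difference between the regions was not tested. The 60 min libraries also had lower astrocyte markers, 3355 to 4269 CPM against 4519 to 5126 CPM at 30 min, and the part of these in the Dio2 difference was not tested. Between 60 and 120 min 3 were called (37.6%), Thrb (0.35, adjusted p = 0.000401) and Dio2 (0.16, adjusted p = 0.0492) higher and Thra (-0.11, adjusted p = 0.0286) lower at 120 min. The Dio2 call was lost with upper-quartile scaling (adjusted p = 0.0766), voom (adjusted p = 0.0510) and no filter (adjusted p = 0.0570), and in 25 of 32 fits that each left out 1 library (highest adjusted p = 0.116). It held in the 7 fits without replicates 4 or 6 of the 120 min controls, replicate 2 of the 120 min intruder group, replicates 2 or 4 of the 30 min intruder group, replicate 3 of the 60 min controls or replicate 1 of the 60 min intruder group. The Thra call was lost without the filter (adjusted p = 0.0521) and without replicates 1 or 5 of the 60 min controls (adjusted p = 0.0574 and 0.0788). Trh was 1.28 ± 1.09 CPM at 30 min and 3.86 ± 2.16 CPM at 60 min (1.63 ± 0.432, adjusted p = 0.00189). With the olfactory bulb marker score as a covariate, added after the data were seen, this difference was 0.40 (adjusted p = 0.306), while those of Thrb (-0.24, adjusted p = 0.0125), Thra (0.14, adjusted p = 0.0110) and Dio2 (-0.28, adjusted p = 0.00429) were still called. With the same covariate the Thra difference between 60 and 120 min was -0.047 (adjusted p = 0.428). Trh was then called at 120 against 30 min over both conditions (0.91, adjusted p = 0.0121, against 0.88 and 0.127 without the covariate) and at 120 against 60 min within intruder animals (1.10, adjusted p = 0.0496, against -0.08 and 0.926).

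Within a region some members varied with marker scores of the dissected piece, and the cause of this was not tested. Pearson correlations were taken between deviations from group means of a gene's log2 level and of a marker score, for 252 pairs, with 100000 permutations whose smallest possible p is 1e-05. In amygdala (n = 30) the striatum score went with lower Thrb (r = -0.939, rho = -0.932), Trhr (r = -0.890, rho = -0.879), Thra (r = -0.884, rho = -0.857) and Trh (r = -0.830, rho = -0.868), and with higher Hr (r = 0.938, rho = 0.947). Each of these had a permutation p of 1e-05 and an adjusted p of 0.000148, and without the 2 libraries farthest from the median score r stayed between -0.935 and -0.818, and at 0.941 for Hr. For Dio2 and the striatum score r was 0.218 (permutation p = 0.305). Dio2 went instead with lower choroid plexus markers (r = -0.646, rho = -0.589, permutation p = 9e-05, adjusted p = 0.000782, and r = -0.510 without the 2 farthest libraries) and with a lower paraventricular and neuroendocrine score (r = -0.507, rho = -0.465, permutation p = 0.0127, adjusted p = 0.0458, and r = -0.476 without the 2 farthest). Oligodendrocyte markers gave similar values, from r = -0.910 for Thrb to r = 0.917 for Hr. Thalamus markers (r = -0.827 for Thrb and 0.782 for Hr) and general hypothalamic markers (-0.807 and 0.740) also moved with these genes. A list drawn up for tanycytes went the other way (r = 0.689 for Thrb and -0.699 for Hr). The parts of these tissues therefore cannot be told apart.

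**Figure D5:**
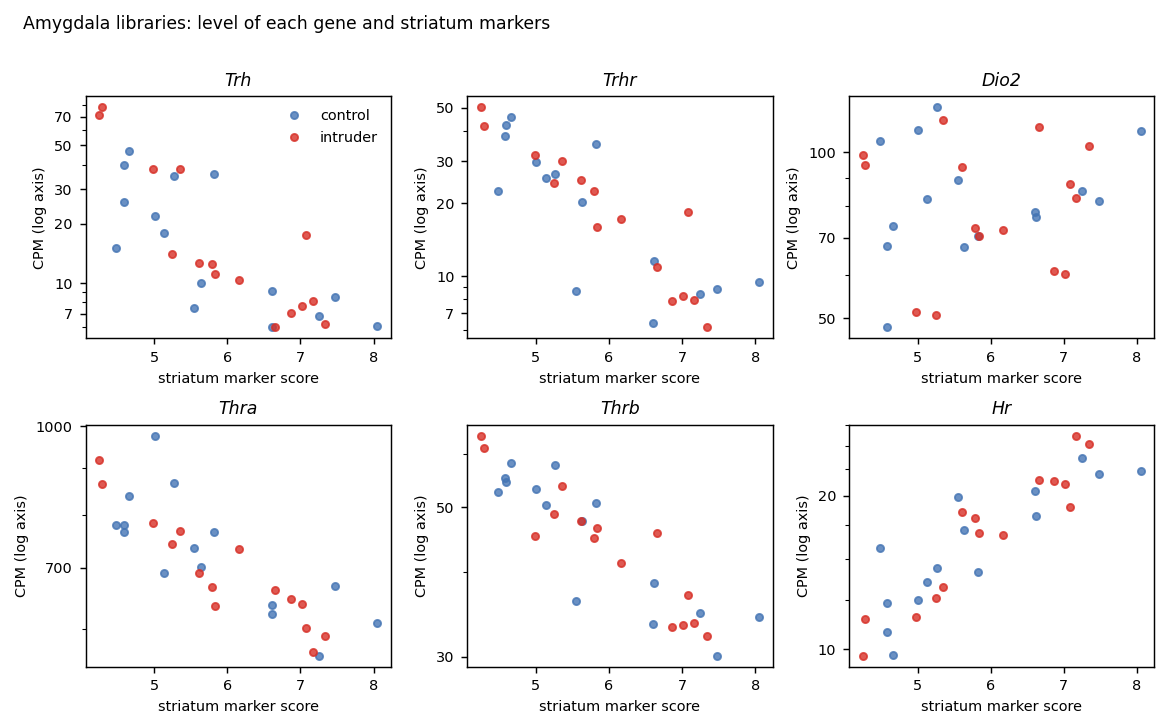
Level of each gene in the 30 amygdala libraries, in CPM on a log axis, against the striatum marker score of the library (mean log2 of CPM plus 1 over 5 genes). Trh, Trhr, Thra and Thrb fall and Hr rises along the score, and Dio2 shows no such slope.

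In hypothalamus (n = 28) Trh followed the paraventricular and neuroendocrine marker score (r = 0.812, rho = 0.801, permutation p = 1e-05, adjusted p = 0.000148, and r = 0.739 without the 2 farthest libraries). Dio2 went the other way (r = -0.666, rho = -0.605, permutation p = 0.0016, adjusted p = 0.00896, and r = -0.592 without the 2 farthest). Thrb followed the marker score of Rax, Gpr50, Col23a1, Crym and Adm, a list drawn up for tanycytes (r = 0.886, rho = 0.840, permutation p = 1e-05, adjusted p = 0.000148, and r = 0.827 without the 2 farthest). Dio2 and that score had r = 0.392 (rho = 0.426, permutation p = 0.0745, adjusted p = 0.182). The list is not specific to tanycytes: Crym had a median of 4.81 CPM in hypothalamus, 69.9 CPM in amygdala and 48.2 CPM in frontal cortex. Dio2 and the astrocyte score had r = 0.515 (rho = 0.411, permutation p = 0.0119, adjusted p = 0.0434), which fell to 0.364 without the 2 farthest libraries. In frontal cortex (n = 32) Dio2 and the astrocyte score had r = 0.571 (rho = 0.566, permutation p = 0.00225, adjusted p = 0.0123, and r = 0.505 without the 2 farthest), and in amygdala r = 0.0813 (rho = -0.00823, permutation p = 0.709). In frontal cortex Trh followed the olfactory bulb score (r = 0.816, rho = 0.868, permutation p = 1e-05, adjusted p = 0.000148, and r = 0.772 without the 2 farthest) and Hr the cortical score (r = 0.835, rho = 0.860, permutation p = 1e-05, adjusted p = 0.000148, and r = 0.782 without the 2 farthest). Hr there also went with a lower score of the tanycyte list (r = -0.896, permutation p = 2e-05, adjusted p = 0.000219). The amygdala markers gave r = -0.780 for Hr (permutation p = 5e-05, adjusted p = 0.000467). The tanycyte list also went with higher Trh (r = 0.743) and Trhr (r = 0.759) in frontal cortex.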

How the data were processed

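Poly(A)-selected RNA was sequenced as single-end reads, per the labels' protocols. The authors deposited whole-number counts of reads per gene. The submitters' processing notes name CASAVA 1.8.2, TopHat2 2.0.8, HTSeq 0.6.1, edgeR 3.2.4, R 3.0.0 and build NCBIM37, with no roles. Rows for reads with no feature (8.63% to 14.5%), ambiguous reads (0.634% to 0.761%) and multiply aligned reads (9.79% to 11.5%) were left out. Gencode M21 named 32919 of 37991 identifiers. Each region was fitted with 6 groups in edgeR 4.0.16 (R 4.3.3; filterByExpr, TMM, quasi-likelihood F test, Benjamini-Hochberg adjustment), and all 90 libraries together for regions. Alternatives were DESeq2 1.42.0, limma 3.58.1 voom, upper-quartile scaling, no filter, blocks, the compared groups alone and leaving out libraries. Likeness used log2 CPM with a prior count of 2, over genes with a mean of at least 1 CPM. The fits were tested on simulated data. Some single genes of the lists are not reported here. The members and lists were chosen with earlier results of these data known. Some of the named further axis genes are among the 2 with the largest fold each way per region pair, not all of which are named. The others stand for a list and were chosen after their values were seen. In 183 within-group pairs no libraries were near-identical (chi-square per gene at least 4.38). Animal labels pair regions of 1 animal (median correlation of deviations 0.0384 to 0.214). Reads carry no molecular identifiers. SD and SE measure the spread between libraries.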

Additional observations from a re-analysis of the deposited data

Results flagged for a closer look

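In 102 groups of 4 to 6 libraries, 13 values lay far from the other libraries of their group by Dixon's criterion, and chance flags about 1 in 20 groups. Dio2 was low in amygdala replicate 4 of the 30 min controls (48.2 CPM, next 73.5). It was high in hypothalamus in replicate 2 of the 120 min controls (29.6 CPM, next 17.8) and replicate 6 of the 120 min intruder group (40.2 CPM, next 19.3). Hr was high in amygdala replicate 6 of the 60 min controls (22.3 CPM, next 14.4), the library with the highest summed striatum markers (1740 CPM), and in hypothalamus replicate 1 of the 30 min intruder group (72.5 CPM, next 42.9).

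Trh was high in 3 amygdala libraries, replicate 3 of the 30 min intruder group (38.1 CPM, next 14.0), replicate 3 of the 120 min controls (40.003 CPM, next 15.1) and replicate 1 of the 120 min intruder group (38.0 CPM, next 12.8). In frontal cortex replicate 1 of the 120 min intruder group was high for Trh (11.9 CPM, next 2.70) and for Trhr (5.22 CPM, next 2.69). Trhr was also high in frontal cortex replicate 3 of the 30 min controls (1.70 CPM, next 1.32), in hypothalamus replicate 4 of the 30 min intruder group (16.7 CPM, next 14.5) and in hypothalamus replicate 2 of the 120 min controls (29.7 CPM, next 14.7). That last library had the highest Thrb (44.4 CPM) and the highest summed cortical markers (204 CPM) of the hypothalamus libraries.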

How the results depend on the processing

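In amygdala the count of members called over time, 1 in intruder animals and 1 over both conditions, was 0 in each with the library index as a block and 3 over both conditions with the striatum score as a covariate (Dio2, Thrb and Hr). In hypothalamus the count over both conditions, 1, was 2 with DESeq2, 0 without the filter and 0 to 2 when 1 library was left out, moving in 18 of 28 fits. The called member also changed where the count did not: with voom, and without replicate 1 of the 30 min intruder group, it was Hr (adjusted p = 0.0379 and 0.0224) and not Dio2 (adjusted p = 0.0558 and 0.0563). In frontal cortex the count within controls, 2, was 1 with the olfactory bulb score as a covariate and 1 to 3 when 1 library was left out, and the count within intruder animals, 2, was 1 to 3. Trh in frontal cortex of intruder animals between 120 and 60 min turned from -0.08 to 1.10 with the olfactory bulb score. With the animal as a replicate block the Trhr difference between hypothalamus and amygdala was no longer called, at -0.30 in controls and -0.32 in intruder animals; upper-quartile scaling, voom and no filter also lost it, as did leaving out 1 animal in 11 fits in controls and 7 in intruder animals. Equal replicate numbers across conditions did not pair libraries (correlations of deviations -0.678 to 0.667, every pair above 0.1 in 0 of 9 sets), and a replicate block on them moved 0 of the calls. The alternatives refitted 360 values of the members many times over. Among the refitted values 12843 kept direction and call, 169 lost a call, 43 gained one and 1 changed direction. The causes were not tested. Most refits left out 1 library or animal and so overlap, and a value without a call could not lose one. The index block could not be fitted for 23 comparisons, all in hypothalamus and frontal cortex. Trh in frontal cortex rested on as few as 11 reads in a library, so its values there carry counting error.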

Other observations

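Genes with the pattern most like each member over the 18 group means were sought among 13998 genes. Trh was most like Lrrc23 (r = 0.995), Trhr like Hpcal1 (r = 0.993), Dio2 like Lgalsl (r = 0.994), Thra like Hsbp1 (r = 0.981), Thrb like Zfp251 (r = 0.993) and Hr like Plxdc1 (r = 0.966). These points share their region, so such values mostly describe the order of the regions. Ranking by Spearman's rho kept at most 1 of the 3 leading genes of each member.

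Within hypothalamus, over deviations of 28 libraries from their group means and among 14014 genes, Trhr was most like Kcng1 (r = 0.942), Vxn and Lypd1. Thrb was most like Nol4 (r = 0.937), Matn2 and Diaph1, and Hr like Plin4 (r = 0.916), Map3k6 and Mertk. Thra was most like Wsb2 (r = 0.860), Pkig and Mtfp1. Dio2 was most like Fzd1 (r = 0.855), Kcnj2 and Colgalt2, and Trh like Meaf6 (r = 0.838) and Rspo1. Ranking by Spearman's rho kept 0 of the 3 leading genes of Thra, 1 of those of Trh and 2 or 3 of those of the other members. The libraries share their dissection, and these values are descriptions with no test.

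Among the 13 nuclear partners and coregulators of the receptors, 7 were called in amygdala between 30 and 60 min over both conditions (4 higher and 3 lower, where 5.79% of all genes were higher and 3.32% lower) and 7 between 30 and 120 min (5 higher and 2 lower, where 6.54% were higher and 3.24% lower). At 120 min the coactivators Ncoa2 (0.24, adjusted p = 0.000262) and Ncoa3 (0.26, adjusted p = 0.0170) and the corepressor Ncor1 (0.16, adjusted p = 0.0306) were higher, and the corepressor subunits Hdac3 (-0.13, adjusted p = 0.00978) and Gps2 (-0.19, adjusted p = 0.00284) lower, by edgeR with Benjamini-Hochberg adjustment. The corepressor genes named thus differed among themselves in direction, and both named coactivators were higher. Not all of the 5 higher genes are named, and those named were picked after their values were seen. The comparison cannot be told apart from that between the header marks. With the library index as a block the members' calls over time in amygdala did not hold, and that block is not reported for these genes.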
